A study of Mus musculus with 12 samples.

Results

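The route by which a cell cuts its proteins and displays the peptides on its surface was followed through 10 genes in cells sorted from injured mouse muscle: the proteasome activator genes Psme1 and Psme2, the inducible catalytic subunits Psmb8, Psmb9 and Psmb10, the peptide transporter genes Tap1 and Tap2, the loading factor Tapbp, the light chain B2m and the transactivator Nlrc5. The members were chosen by symbol, and all 10 of 10 were found among the 24421 gene symbols counted and among the 12981 genes tested. The tibialis anterior was injured with the snake toxin notexin, which kills muscle fibres, in Ifngr1 wt/null mice, which keep 1 working allele of the ligand-binding chain of the interferon gamma (IFN-γ) receptor, and in Ifngr1 null/null mice, which have none. No group had 2 working alleles, so every mouse carried at least 1 null allele. Animals received daily injections of an antibody that neutralizes TNF or of an isotype control antibody, and on day 5 live CD45+ CD11B+ LY6G/SIGLECF- cells, labelled as macrophages, were sorted for sequencing of messenger RNA. Both genotypes under both antibodies made 4 groups of 3 libraries each. Neither age nor sex, nor whether a library was 1 mouse, is stated in the labels, so p-values measure the spread between these samples, which may be technical. The structure of the null allele is not given in the sources used here.

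Proteasomes cut proteins into peptides. Under IFN-γ, signals through the receptor and the factor Irf1 induce 3 alternative catalytic subunits, which replace constitutive ones to form the immunoproteasome: Psmb8 takes the place of Psmb5, Psmb9 that of Psmb6 and Psmb10 that of Psmb7. Psme1 and Psme2 encode the alpha and beta chains of PA28, a ring that caps the proteasome and eases the exit of peptides. Tap1 and Tap2 form the pump that carries peptides into the endoplasmic reticulum, and tapasin, the product of Tapbp, holds empty class I molecules beside that pump. B2m is the light chain shared by class I molecules, and Nlrc5 switches on the promoters of class I and several loading genes. Macrophages use this route to show peptides to CD8+ T cells.

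Some of the genes are clustered in the genome, which is given here on the GRCm38 build (mm10) with gene bounds from GENCODE M21. On chromosome 17, Psmb9 (34181987 to 34187764, minus strand), Tap1 (34187553 to 34197225, plus strand), Psmb8 (34197721 to 34201454, plus strand) and Tap2 (34203527 to 34216321, plus strand) follow each other, with 495 bases between Tap1 and Psmb8 and 2072 between Psmb8 and Tap2. Tapbp (33915899 to 33929292, plus strand) lies on the same chromosome, 253 kb from Psmb9. Psme1 (55578123 to 55581529, plus strand) and Psme2 (55587441 to 55591113, minus strand) are neighbours on chromosome 14. Psmb10 (105935735 to 105938444, minus strand) and Nlrc5 (94434356 to 94527272, plus strand) are on chromosome 8, 11.4 Mb apart, and B2m (122147686 to 122153083, plus strand) is on chromosome 2.

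Psmb9 and Tap1 point away from each other and start from one shared interval, whose 225 bases between the start sites in RefSeq (GRCm38.p6) are shown because the RNAs of both genes varied together. The B2m and Psmb8 stretches are shown because they hold the letters of sites for the factors of the IFN-γ and TNF pathways. Each is read 5′ to 3′ on the plus strand. Capitals mark the Y box CCAAT in the first, then the ISRE core (GAAA, any 2 bases, GAAA), the kB letters (GGGA, any 2 bases, TTCC) and the Y box in B2m (the latter pair on the minus strand), and the GAS letters TTCNNNGAA in Psmb8. No marked motif overlaps another.
Psmb9 and Tap1, chr17:34187331-34187555: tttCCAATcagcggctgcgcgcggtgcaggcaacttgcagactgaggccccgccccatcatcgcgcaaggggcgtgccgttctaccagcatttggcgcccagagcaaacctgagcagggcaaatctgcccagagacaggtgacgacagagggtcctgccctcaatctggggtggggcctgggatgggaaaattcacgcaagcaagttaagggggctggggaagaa
B2m, chr2:122147537-122147686: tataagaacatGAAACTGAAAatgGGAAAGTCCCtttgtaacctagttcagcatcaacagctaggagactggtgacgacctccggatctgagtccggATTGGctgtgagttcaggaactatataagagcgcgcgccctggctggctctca
Psmb8, chr17:34198075-34198134: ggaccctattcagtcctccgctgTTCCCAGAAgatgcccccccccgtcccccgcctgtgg

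RefSeq promoter windows of 300 bases, from 250 before a start site to 50 after it, were found for 8 of the 10 members, Tap2 and Nlrc5 being the others. With both strands searched, the ISRE core was in the B2m and Psme1 windows, and it was in 3.44% of all 32851 windows of that length. The GAS letters were in the Psmb8 window, against 8.3% of all windows, and the kB letters in the B2m window, against 1.47%. The Y box was in the windows of Psmb9, Tap1, Tapbp and B2m, against 37.4% of all windows. The windows of Psmb9 and Tap1 overlap, and their Y box is the same site. A match of letters describes the window and does not show a bound site.

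Depth was 23.2 to 29.9 M counts per library (M for mega). Levels are given as CPM, a gene's counts per M counts after TMM scaling, which corrects for differences in library composition. Markers of the labelled cell type were abundant in every library, with Csf1r at 3157 to 4060 CPM and Adgre1 at 1368 to 1783 CPM. Ifngr1, the targeted gene, was at 226 to 250 CPM in the 6 wt/null libraries and 83.3 to 119 CPM in the 6 null/null libraries, so it matched the labels (log2 fold change -1.36 ± 0.08, estimate ± SE, edgeR adjusted p = 1.43e-05, averaged over antibody). A pair of anti-TNF libraries, wt/null replicate 2 and null/null replicate 1, stood apart from the other 10 across all genes. They are titled 40C1 and 40C2, so both carry the title prefix 40C, whose meaning the labels do not give. Isotype wt/null replicate 1 (40C3) and isotype null/null replicate 3 (40C4) carry it as well and did not stand apart. A source shared by libraries of 1 prefix was not tested. In the libraries that stand apart the summed level of 7 dendritic cell markers was 344 and 292 CPM against 93.5 to 153 in the others. That of 3 monocyte markers was 1015 and 937 against 357 to 680. Ifng was at 2.91 and 1.48 CPM in these libraries and at most 0.427 in the others. Fewer cells of a type and less RNA per cell cannot be told apart in such bulk samples.

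No member passed the test in any of the 7 comparisons, and the estimates of all 10 were lower without the receptor. Averaged over antibody, the null/null estimates lay between 67.0% (Tap1) and 90.7% (Tapbp) of the wt/null level, with a median log2 fold change of -0.28 where the median of all tested genes was 0.000233. Of all genes tested, 49.9% had a lower estimate. edgeR called 0 members at an adjusted p below 0.05 (Benjamini-Hochberg over all 12981 genes), against 0.0077% of all genes, which was Ifngr1 alone. DESeq2 called 0 members as well, with 0.0308% of all genes called. At an unadjusted p below 0.05, 4 members were lower (Tap1, Nlrc5, B2m and Psme2), where 1.18% of all genes were lower at that level. Each of the 10 adjusted p-values was 0.9996, rounded alike. The comparison of all 6 null/null with all 6 wt/null libraries left 0 members without overlap, against 0.123% of all genes on the lower side.

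**Figure D1:**
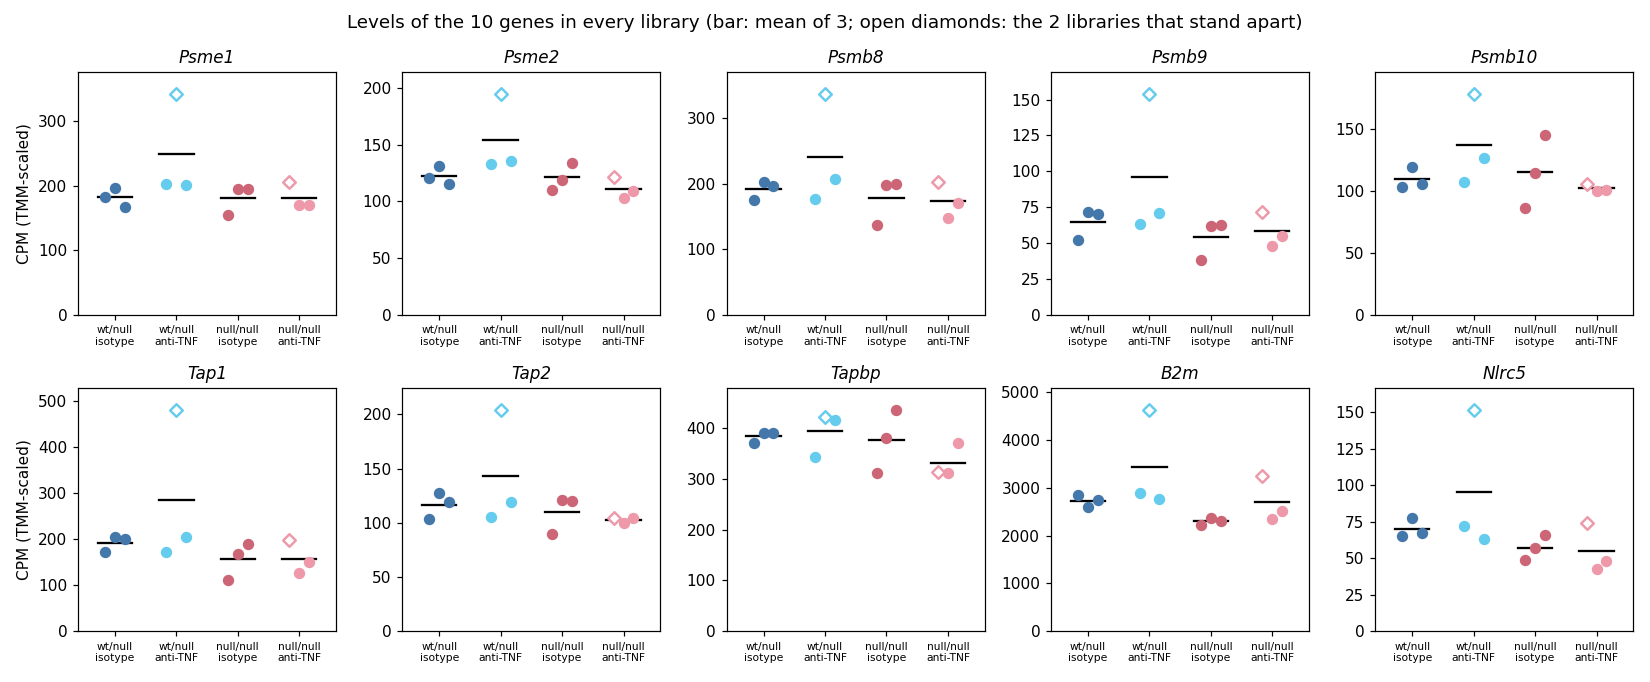
TMM-scaled CPM of the 10 genes in each of the 12 libraries (vertical axes, linear and starting at 0), by genotype and antibody on the horizontal axis, with the mean of 3 libraries as a bar and the 2 libraries that stand apart as open diamonds. The open wt/null diamond is the highest of 12 for every gene but Tapbp, and reaches 480 CPM for Tap1 where the other 11 libraries hold 112 to 205.

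The transporter gene Tap1 had the largest estimate of the 10 with all libraries in the fit, but not without anti-TNF wt/null replicate 2, when Nlrc5 was ahead of it. It was at 171, 205 and 200 CPM in isotype wt/null (replicates 1 to 3), at 172, 480 and 205 in anti-TNF wt/null, at 112, 168 and 188 in isotype null/null and at 197, 125 and 150 in anti-TNF null/null. The null/null libraries reached into the wt/null range under both antibodies, and the library at 480 CPM was 2.34 times the next highest. Averaged over antibody the log2 fold change was -0.58 ± 0.25 (95% interval -1.14 to -0.02, edgeR adjusted p = 0.9996). Without anti-TNF wt/null replicate 2 it was -0.28 ± 0.15, and without both libraries that stand apart -0.38 ± 0.14. An exact two-sided permutation of Tap1 within antibody, over all libraries, gave p = 0.05, where 0.005 was the smallest that 400 arrangements could give. Tap2, the other chain of the pump, had a smaller estimate of -0.28 ± 0.15. It averaged 116 ± 12.1 CPM (mean ± SD, n = 3 in each group) in isotype wt/null, 143 ± 53.2 in anti-TNF wt/null, 110 ± 17.8 in isotype null/null and 103 ± 2.59 in anti-TNF null/null. The ratio of Tap1 to Tap2 counts, which needs no scaling of libraries, was 1.61 to 2.35 in the wt/null libraries and 1.24 to 1.89 in the null/null libraries. The null/null value of 1.89 came from anti-TNF null/null replicate 1, and the other 5 null/null libraries, at 1.24 to 1.57, lay below all wt/null libraries. That library was set aside with the ratios known, and the ratio was not tested.

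Nlrc5, which drives class I promoters, was at 65.3, 77.6 and 67.5 CPM in isotype wt/null and at 72.0, 151 and 63.0 in anti-TNF wt/null. Without the receptor it was at 48.8, 56.7 and 65.6 CPM under isotype and at 74.0, 42.3 and 48.1 under anti-TNF. The highest null/null library, at 74.0, was one of those that stand apart, and without it the null/null values ended at 65.6 CPM, inside the lower end of the wt/null range. The averaged log2 fold change was -0.55 ± 0.22 (95% interval -1.04 to -0.06, edgeR adjusted p = 0.9996), and the exact permutation within antibody gave p = 0.04. Without anti-TNF wt/null replicate 2 the Nlrc5 estimate was -0.30 ± 0.14, and without both libraries that stand apart it was -0.44 ± 0.09 with an edgeR adjusted p of 0.782. Its level was the lowest of the 10 members per length of exon.

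The estimates of the immunoproteasome subunits differed in size, with ranges of ± SE that overlap. Psmb9 had the largest estimate of the 3 (-0.49 ± 0.24 averaged over antibody), Psmb8 lay between (-0.29 ± 0.16) and Psmb10 had the smallest (-0.17 ± 0.14), with edgeR adjusted p-values of 0.9996 for each. Without anti-TNF wt/null replicate 2 these were -0.23 ± 0.15, -0.13 ± 0.11 and -0.06 ± 0.11. Psmb9 was at 52.2, 71.4 and 70.3 CPM in isotype wt/null, at 63.3, 154 and 71.2 in anti-TNF wt/null, at 37.9, 62.0 and 62.5 in isotype null/null and at 71.9, 48.1 and 54.7 in anti-TNF null/null. The groups overlapped under both antibodies. Psmb8 averaged 191 ± 14.7 CPM in isotype wt/null, 240 ± 84.9 in anti-TNF wt/null, 178 ± 35.7 in isotype null/null and 174 ± 27.3 in anti-TNF null/null (mean ± SD, n = 3). Psmb10 was at 103, 120 and 106 CPM in isotype wt/null and at 86.8, 115 and 145 in isotype null/null, so its isotype estimate was the 1 member estimate above 0 (0.08 ± 0.19). It became -0.12 without isotype null/null replicate 3. The differences between the 3 subunits were not tested. Psmb9 and Tap1, which share the interval printed above, held a count ratio (Tap1 to Psmb9) between 2.61 and 3.28 in all 12 libraries, while Tap1 itself spanned 112 to 480 CPM. A steady ratio was not particular to this pair. Psme2 to Psme1, genes with 5911 bases between them, ranged from 0.569 to 0.715, about as narrow for its size. GENCODE models of Psmb9 and Tap1 overlap on opposite strands, as do those of Psme1 and Emc9, of B2m and Patl2, and of other members with antisense RNAs. The strand setting of the counting is not given, so reads of such overlaps cannot be told apart.

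The constitutive subunits that these replace had no lower averaged estimate. Psmb5 was at 0.15 ± 0.09, Psmb6 at 0.12 ± 0.08 and Psmb7 at 0.01 ± 0.05 on the log2 scale, each with an edgeR adjusted p of 0.9996. As a ratio of counts within a library, Psmb8 to Psmb5 was 3.77, 4.79 and 3.88 in isotype wt/null, 4.33, 8.06 and 3.91 in anti-TNF wt/null, 2.86, 3.84 and 3.37 in isotype null/null and 4.50, 3.16 and 3.08 in anti-TNF null/null. Under isotype 2 of the 3 null/null ratios lay below all 3 wt/null ratios and the third lay within them. Psmb9 to Psmb6 was 0.368 to 0.530 in isotype wt/null and 0.269 to 0.358 in isotype null/null, which did not overlap. Psmb9 alone did overlap there, at 52.2 to 71.4 CPM in wt/null and 37.9 to 62.5 in null/null. Psmb6, the divisor, was at 135 to 142 CPM in isotype wt/null and 141 to 179 in isotype null/null. How often ratios of other genes separate in this way was not computed. Under anti-TNF the ratio of Psmb9 to Psmb6 was 0.429 to 1.24 in wt/null and 0.318 to 0.556 in null/null, where the null/null library that stands apart reached into the wt/null range. Psmb10 to Psmb7 averaged 1.11 ± 0.071 in isotype wt/null and 1.14 ± 0.283 in isotype null/null (mean ± SD, n = 3), a difference smaller than the spread between replicates. These ratios are descriptions and were not tested.

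**Figure D2:**
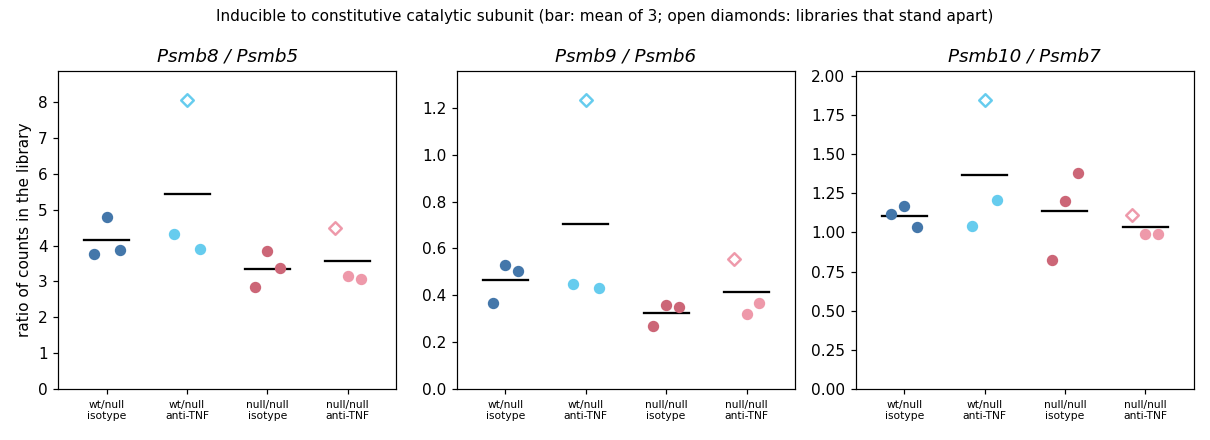
Ratio of the counts of each inducible catalytic subunit to those of the constitutive subunit it replaces, in each of the 12 libraries (linear axes starting at 0), by genotype and antibody, with the mean of 3 as a bar and open diamonds for the libraries that stand apart. The open wt/null diamond is the highest for each of the 3 ratios, at 8.06 for Psmb8 to Psmb5 and 1.24 for Psmb9 to Psmb6.

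The genotype estimates of the PA28 genes were lower under anti-TNF than under isotype, as were those of all 10 members. Psme2 was at 121, 131 and 116 CPM in isotype wt/null and 110, 119 and 134 in isotype null/null, and at 133, 195 and 136 in anti-TNF wt/null and 121, 103 and 109 in anti-TNF null/null. Under isotype the groups lay in the same range. Under anti-TNF all 3 null/null libraries were below all 3 wt/null libraries, which held for 2.58% of all genes. The log2 fold change of Psme2 was -0.47 ± 0.14 under anti-TNF, and the test of the difference between antibodies, the interaction, gave -0.46 ± 0.20 (95% interval -0.88 to -0.03, edgeR adjusted p = 0.9998, not called). Tap1 had a larger interaction estimate, -0.56, also not called. Without anti-TNF wt/null replicate 2 the interaction of Psme2 was -0.25 ± 0.14, with an interval that includes 0. Psme1 averaged 182 ± 15.2 CPM in isotype wt/null, 249 ± 81.1 in anti-TNF wt/null, 181 ± 23.4 in isotype null/null and 182 ± 20.4 in anti-TNF null/null (mean ± SD, n = 3). The RNA of Psme2 has a related gene, Psme2b, with 2390 counts over all libraries, so reads could be split between these genes and the share of each is uncertain.

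B2m, by far the most abundant of the 10, was at 2842.5, 2591 and 2737 CPM in isotype wt/null and 2231, 2372 and 2311 in isotype null/null. It was at 2886, 4628 and 2775 CPM in anti-TNF wt/null and 3242, 2339 and 2517 in anti-TNF null/null. Under isotype the genotypes did not overlap, and B2m was the 1 member of which that was true in this comparison, where 3.65% of all genes had every null/null library lower. The isotype difference was -0.24 ± 0.18 on the log2 scale (edgeR adjusted p = 0.9998) and the averaged one -0.29 ± 0.13 (edgeR adjusted p = 0.9996, exact permutation within antibody p = 0.05). Without both libraries that stand apart, the 5 null/null libraries were at 2231 to 2517 CPM and the 5 wt/null libraries at 2591 to 2886, so that B2m was the 1 member without overlap, against 0.377% of all genes on the lower side. Tapbp had the smallest averaged estimate of the 10 with all libraries (-0.14 ± 0.09). Without both libraries that stand apart that of Psmb10 (-0.07 ± 0.12) was smaller than that of Tapbp (-0.10 ± 0.10). For Tapbp the highest library was isotype null/null replicate 3, at 436 CPM.

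**Figure D3:**
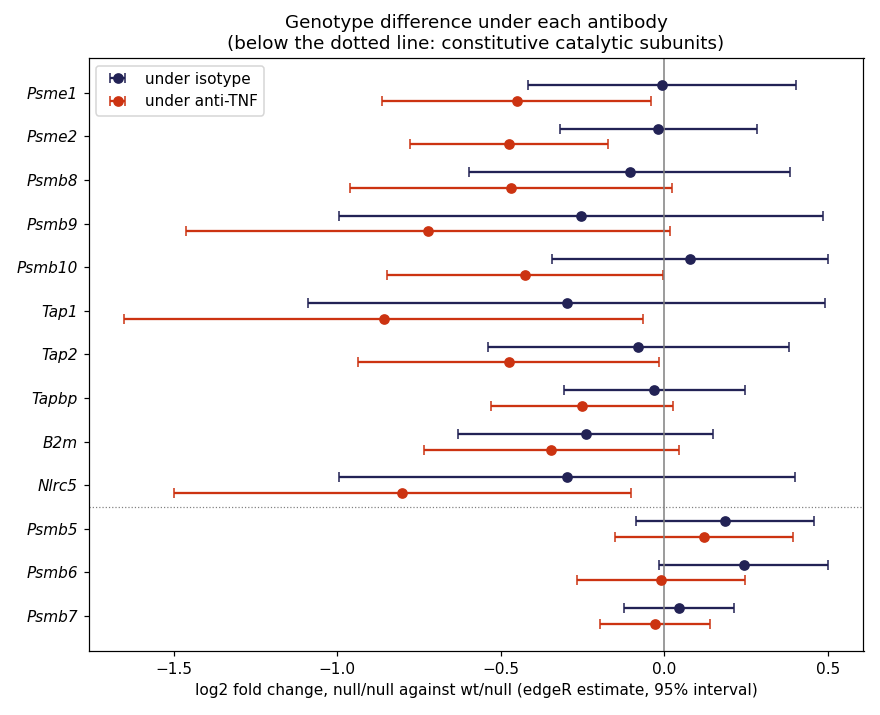
edgeR log2 fold change of null/null against wt/null (horizontal axis) with its 95% interval, under isotype (dark blue) and under anti-TNF (red), for the 10 genes and, below the dotted line, the 3 constitutive catalytic subunits. All isotype intervals include 0, and the anti-TNF intervals of 6 of the 10 genes lie below 0 before any correction over genes.

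Under isotype alone the median difference was small, but the errors were too wide to show that the genotypes were alike. B2m was the 1 member whose genotypes did not overlap there. The estimates of 9 of 10 members were lower, with a median log2 fold change of -0.09, where 49.3% of all genes were lower. The largest were Tap1 (-0.30 ± 0.36) and Nlrc5 (-0.30 ± 0.31). edgeR called 0 members, against 0.0077% of all genes, and 0 were below an unadjusted p of 0.05, against 1.8% of all genes. DESeq2 also called 0 members here, with 0.0154% of genes called. The median turned to 0.04 without isotype null/null replicate 1, which held the lowest level of the 12 libraries for 7 members, Psme1, Psmb8, Psmb9, Psmb10, Tap1, Tap2 and B2m. That library also held the highest summed level of 6 neutrophil markers, 43.7 CPM against 1.43 to 5.68 in the other 11 libraries, and the part of this in the result was not tested. The spread is shared over the 4 groups, so the anti-TNF libraries that stand apart also widen the isotype errors. Without both of them the isotype median was still -0.09, with B2m at -0.24 ± 0.09 and Nlrc5 at -0.30 ± 0.12. These 2 members were then below an unadjusted p of 0.05 in edgeR, against 3.01% of all genes, and 0 members were called.

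With TNF neutralized the estimates of all 10 members were lower in null/null, with a median log2 fold change of -0.47, where 49.3% of all genes were lower. They ran from -0.86 ± 0.36 for Tap1 and -0.80 ± 0.32 for Nlrc5 to -0.25 ± 0.13 for Tapbp. edgeR called 0 members (adjusted p = 0.9997 for each), against 0.0077% of all genes. DESeq2 called 0 members and 0.0154% of all genes. At an unadjusted p below 0.05 there were 6 members, Psme1, Psme2, Psmb10, Tap1, Tap2 and Nlrc5, where 1.17% of all genes were lower at that level. All 3 null/null libraries lay below all 3 wt/null libraries for Psme2, Psmb10 and Tap2, against 2.58% of all genes. The exact permutation gave p = 0.1 for these 3 members, the smallest that 3 against 3 allow. This comparison shares no library with that under isotype, and the averaged comparison is made of both. The test of the difference between the antibodies, the interaction, had estimates below 0 for all 10 members (median -0.45), where 50.6% of all genes were below 0, with 0 called by edgeR or DESeq2 against 0% of all genes, and 1 member, Psme2, below an unadjusted p of 0.05 against 1.51% of all genes.

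That size depended on a single library. anti-TNF wt/null replicate 2 had the highest level of 9 of the 10 members, Tapbp being the exception, and without it the anti-TNF median was -0.20 in place of -0.47 and Tap1 was at -0.26 in place of -0.86. All 10 estimates stayed below 0, and 1 member, Psme2 (-0.27 ± 0.11), was below an unadjusted p of 0.05, against 1.26% of all genes. Without both libraries that stand apart the median was -0.26, with Nlrc5 at -0.58 ± 0.15, Tap1 at -0.45 ± 0.21, Psmb9 at -0.39 ± 0.23 and Psme2 at -0.34 ± 0.11, and 0 members were called. Then 9 of 10 members, all but Tapbp, had both null/null libraries below both wt/null libraries, against 11.1% of all genes. This check was chosen after seeing the data and sets 2 libraries against 2. The members also varied together, with Pearson correlations to Nlrc5 of 0.541 (Psmb10) to 0.848 (Psme2) over the 10 libraries left. The 9 members are thus not separate observations. The interaction median was -0.05 without anti-TNF wt/null replicate 2 and -0.16 without both.

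**Figure D4:**
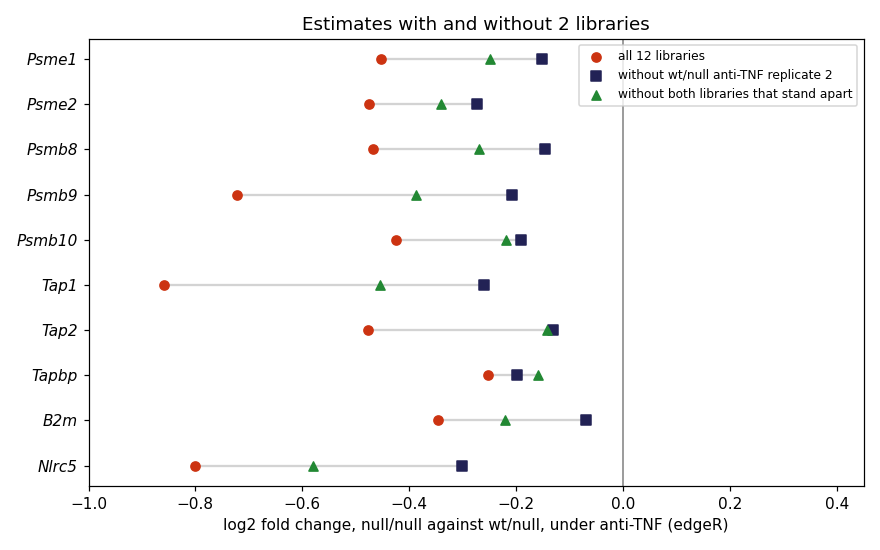
edgeR log2 fold change of null/null against wt/null under anti-TNF (horizontal axis) for the 10 genes with all 12 libraries (circles), without anti-TNF wt/null replicate 2 (squares) and without both libraries that stand apart (triangles). Every estimate stays below 0, and that of Tap1 moves from -0.86 to -0.26 or -0.45.

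The libraries that stand apart differed in genotype and are set side by side here. They were not alike in all markers of other cells. The monocyte marker Ccr2 was at 796 CPM in the wt/null library and 839 in the null/null library, but Ly6c2 was at 77.8 and 30.3, Plac8 at 141 and 67.5 and the dendritic cell marker Clec9a at 16.5 and 6.40. The wt/null library held 480 CPM of Tap1, 151 of Nlrc5, 154 of Psmb9 and 337 of Psmb8. The null/null library held 197, 74.0, 71.9 and 203 CPM of the same genes. The wt/null library was higher for each of the 10 members, by 1.35 times for Tapbp and by 2.43 times for Tap1. Irf1, which acts on the promoters of these genes, was at 359 and 151 CPM. This sets 1 library against 1, with no replicate check. Among the null/null libraries, replicate 1 of anti-TNF had the highest level of 6 members (Psme1, Psmb8, Psmb9, Tap1, B2m and Nlrc5).

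Marker levels of other cells varied over all 12 libraries, and the highest dendritic cell and monocyte sums of each anti-TNF group were those of the libraries that stand apart. By group, the summed level of 7 dendritic cell markers was 93.5 to 110 CPM in isotype wt/null, 138 to 344 in anti-TNF wt/null, 103 to 137 in isotype null/null and 121 to 292 in anti-TNF null/null. In the same order, 3 monocyte markers were at 443 to 505, 475 to 1015, 357 to 462 and 459 to 937 CPM, and 11 markers of T and NK cells at 121 to 137, 104 to 175, 98.4 to 203 and 129 to 153 CPM. Most of the T and NK cell sum was Cd4, at 92.3 to 195 CPM. Of the 11 markers 9 were higher in both libraries that stand apart than in any other library, all but Cd4 and Klrb1c. Cd8a was at 5.65 and 2.99 CPM there (wt/null, then null/null) and at most 1.09 elsewhere, Gzma at 5.24 and 1.82 against at most 0.477, and Nkg7 at 3.68 and 2.65 against at most 0.834. Over the 8 of these markers tested, the median log2 fold change of anti-TNF against isotype was 2.03 for the wt/null genotype and 1.39 for the null/null genotype. edgeR called 0 of them, and 1 and 0 were below an unadjusted p of 0.05, against 4.48% and 3.48% of all genes. Outside the libraries that stand apart these markers, Cd4 and Klrb1c excepted, were at most 1.09 CPM. Each median thus leans on 1 library of its anti-TNF group and on levels near 0. Such a marker can also pass the filter on counts through these libraries, both of which are anti-TNF. Cd3e, Cd3d and Prf1 did not pass it. A higher median is therefore partly set by the filter and is no result on the antibody. Summed markers of fibroblasts (3 genes) were at 150 and 92.4 CPM in the libraries that stand apart against 232 to 604 in the others, and those of endothelial cells (5 genes) at 49.5 and 43.9 against 18.4 to 38.0. Markers of muscle (6 genes) were at 53.7 to 106 CPM and of B cells (4 genes) at 10.1 to 20.3 CPM over all 12 libraries. None of these markers was at 0 in all libraries. Their part in the differences of the members was not tested.

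The antibody comparison in wt/null mice shares its anti-TNF libraries with the genotype comparison above. Estimates of all 10 members were higher under anti-TNF, at a median log2 fold change of 0.33, where 49.2% of all genes had a lower estimate. edgeR and DESeq2 called 0 members and 0% of all genes. Psme1 (0.45 ± 0.19) and Psme2 (0.33 ± 0.14) were below an unadjusted p of 0.05, against 4.48% of all genes. They were also the members whose 3 anti-TNF libraries were all above the 3 isotype libraries, against 5.71% of all genes. Psme1 was at 183, 197 and 167 CPM under isotype and at 202, 342 and 202 under anti-TNF, so its groups were separated by a few CPM apart from 1 library. Tap1 was at 0.57 ± 0.36 and Tapbp at 0.04 ± 0.13. Without anti-TNF wt/null replicate 2 the median was 0.03, Psme1 was at 0.15 ± 0.13, Psme2 at 0.13 ± 0.11, Tap1 at -0.03 and Tapbp at -0.02, and 0 members were below an unadjusted p of 0.05, against 1.58% of all genes.

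In null/null mice the antibody estimates were lower for 6 members and higher for 4, with a median of -0.05, where 48.7% of all genes were lower. edgeR and DESeq2 called 0 members and 0% of all genes, and 0 members were below an unadjusted p of 0.05, against 3.48% of all genes. Without both libraries that stand apart 9 of 10 estimates were lower (median -0.15), with Nlrc5 at -0.34 ± 0.13 and 0 members called. Averaged over genotype, 9 of 10 estimates were above 0 (median 0.17), where 48.4% of all genes were below 0. edgeR called 0 members and 0% of genes, and DESeq2 0 members and 0.0462% of genes. B2m was the 1 member below an unadjusted p of 0.05 (0.28 ± 0.13, against 7.31% of all genes), with an exact permutation p of 0.03 within genotype and an edgeR adjusted p of 0.66. Without both libraries that stand apart 8 of the 10 estimates lay below 0 and B2m was at 0.07 ± 0.07.

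Levels of the members can be compared per kb of exon, using all annotated exons of each gene. In isotype wt/null B2m was at 3167 ± 147 CPM per kb (mean ± SD, n = 3), then Tapbp at 106 ± 3.16, Psme1 at 82.6 ± 6.89 and Psme2 at 69.6 ± 4.53. Psmb10 followed at 64.2 ± 5.17 and Psmb8 at 56.6 ± 4.34, then Tap1 at 35.0 ± 3.27, Tap2 at 30.8 ± 3.21, Psmb9 at 17.7 ± 2.94 and Nlrc5 at 8.26 ± 0.77. The means of Psme2 and Psmb10, those of Psmb10 and Psmb8, and those of Tap1 and Tap2 lay within 2 SDs of each other, by either SD. Within each of the 3 libraries Tap1 had 1.61 to 1.68 times the counts of Tap2, before length is taken into account. The length covers every annotated exon, so a level per kb depends on how many exons are annotated.

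The other genes of the pathway are described from lists of related genes, none of whose members other than Ifngr1 was called in any comparison by edgeR. Of all genes tested, 49.9% had a lower averaged estimate. Of 17 class I heavy chain genes 11 were tested, and 10 of these had lower averaged estimates (median -0.27), among them H2-Q4 (-0.37 ± 0.24) and H2-T10 (-0.36 ± 0.19). H2 genes resemble each other closely, so the share of each is uncertain. Of 6 other loading and trimming genes 4 were lower (median -0.02), with Tapbpl, an editor of peptides on class I, at -0.40 ± 0.21 and Erap1, which trims peptides, at -0.19 ± 0.11. The 11 shared subunits of the 20S core had a median of -0.06 with 10 lower (Psma4 -0.11 ± 0.06, Psma1 -0.07 ± 0.06). The 18 subunits of the 19S regulatory particle had a median of -0.01 with 10 lower (Psmd3 0.08 ± 0.07, Psmc6 -0.08 ± 0.08). Of 8 other activator, inhibitor and assembly genes 5 were lower (median -0.06), with Pomp, the assembly chaperone of the core, at -0.15 ± 0.07 and Psmg1, another assembly chaperone, at -0.14 ± 0.11. Of 12 factors of class I promoters 8 were lower (median -0.03), led by Irf1 (-0.55 ± 0.25), with Rfxap at 0.12 ± 0.08. Of 9 genes of receptor signalling 6 were lower (median -0.09), and Ifngr1 was the 1 called. Several of these estimates lean on anti-TNF wt/null replicate 2. There H2-Q4 was at 336 CPM against 87.2 to 189 in the other libraries, and H2-T10 at 46.7 against 17.4 to 29.0. Tapbpl was at 79.9 CPM against 24.9 to 41.3, and Irf1 at 359 against 76.9 to 151. List medians without that library are not given.

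**Figure D5:**
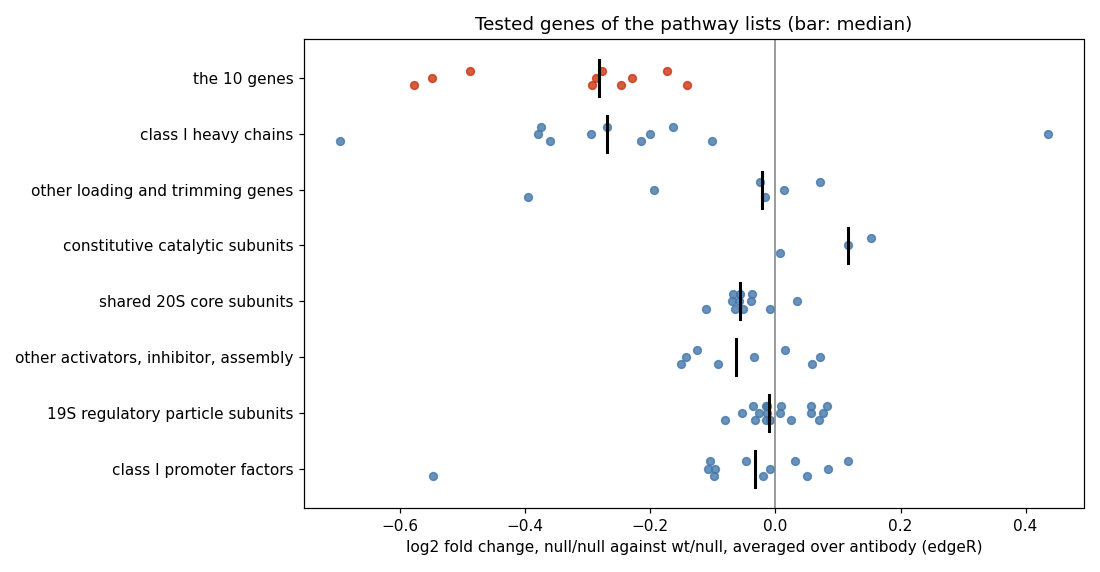
edgeR log2 fold change of null/null against wt/null averaged over antibody (horizontal axis), 1 point per tested gene, for the 10 genes and 7 related lists, with the median as a bar (receptor signalling is not drawn). The 10 genes (median -0.28) and the class I heavy chains (median -0.27) lie mostly below 0, and the other lists drawn have medians between -0.06 and 0.12.

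The pattern of Nlrc5 over the libraries was set beside that of every other tested gene, by Spearman correlation of log2 CPM over 12 libraries, as a description with no test since the genes were ranked by it. All points share the libraries, so one library that stands apart raises many of these values. Of 12980 genes Psmb9 was in place 19 (0.853), Tap1 in place 55 (0.797), Psmb8 in place 137 (0.727) and Psme2 in place 152 (0.72), while Tapbp was in place 1099 (0.483). Over the 10 libraries without those that stand apart the places were 42, 47, 225, 130 and 357. The closest genes outside the 10 were Gbp3 (0.944), Serpina3g (0.93), AW112010 (0.93), Gbp5 (0.909) and Fgl2 (0.902). Among the constitutive subunits, Psmb7 was at -0.105, Psmb5 at -0.615 and Psmb6 at -0.671. Over the 10 libraries these were 0.248, -0.394 and -0.442.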

How the data were processed

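The deposited table holds raw counts per gene symbol, 24421 in all, which the authors made; 12 of 12 columns matched the samples by title. Per the submitters' processing notes, bcl2fastq 2.20, STAR, Bowtie and mm10 were used, with no role stated. The labels' protocols name a stranded mRNA kit. The counting tool, strand setting and annotation are not given in the sources used here. Genes were kept by filterByExpr (12981 genes, at least 99.968% of each library's counts), scaled by TMM and fitted on the 4 group means of all 12 libraries with robust quasi-likelihood models in edgeR 4.0.16 (R 4.3.3). The 7 comparisons were the genotype under each antibody and averaged, the antibody in each genotype and averaged, and the interaction. Calls were made at an adjusted p under 0.05 (Benjamini-Hochberg, all genes tested). All tests were two-sided. The script was tested on simulated data.

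Replicates were numbered in the order of the samples. Alternatives were DESeq2 1.42.0, limma 3.58.1 (voom with sample weights), RLE scaling, a filter of 1 CPM in 3 samples or more, no filter, a block on the number in the title (40 or 46), libraries titled 40 alone, and libraries left out. The block on the title prefix, and overlap without the libraries that stand apart, were chosen after seeing the data. The members, lists and libraries that stand apart were chosen with earlier results of these data known. Named genes were the 10 members, the 3 constitutive counterparts, Ifngr1, Ifng and Irf1 (a further gene that the rule names is not reported here), the called genes of each list or otherwise the 2 with the largest averaged genotype effect at a mean log2 CPM of at least 2, and the 5 closest to Nlrc5. Csf1r and Adgre1 were taken from the marker list, and Psme2b was added as a related gene.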

Additional observations from a re-analysis of the deposited data

How the results depend on the processing

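Over 21 other settings no member was called in any of the 7 comparisons (lowest adjusted p 0.3704), and the averaged and anti-TNF genotype estimates of all 10 members stayed below 0 in each. The antibody median in wt/null and the interaction median (0.33 and -0.45) were 0.03095 and -0.1601 without the libraries that stand apart, and ranged from 0.03064 to 0.4922 and from -0.5727 to -0.04507 with 1 library left out. With 1 library left out the averaged, anti-TNF and isotype genotype medians ranged from -0.3571 to -0.1357, from -0.613 to -0.1951 and from -0.1723 to 0.03789. Among the single estimates printed in the text, directions turned in the same fits for Psmb10 under isotype (-0.1183 to 0.2398), for Tap1 (-0.02551 to 0.8345) and Tapbp (-0.01504 to 0.1269) for the antibody in wt/null, and for the interaction of Tap1 (-0.8209 to 0.03938) and B2m (-0.2572 to 0.1724). Without both libraries that stand apart these were -0.02519 for Tap1 and -0.01472 for Tapbp (antibody in wt/null) and 0.01927 for B2m (interaction). Each anti-TNF group then holds 2 libraries. Psmb10 turned without null/null isotype replicate 3, the others without wt/null anti-TNF replicate 2, and Tapbp also without wt/null anti-TNF replicate 3. Of the estimates not printed singly, Tap2 and Nlrc5 also turned for the antibody in wt/null and Psmb9 for the interaction without wt/null anti-TNF replicate 2, and Psme1, Psme2, Psmb8, Tap2 and Tapbp turned under isotype without null/null isotype replicate 1. The cause was not tested.

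Libraries titled 40 alone (2 a group) gave genotype medians of -0.1541 under isotype, -0.5483 under anti-TNF and -0.352 averaged; title 46 has 1 library a group and no fit of its own. The labels give no replicate numbers. Titles share a prefix of number and letter across genotypes. Deviations of same-prefix libraries correlated at -0.00382 to 0.124 under isotype and 0.483 to 0.631 under anti-TNF. The value of 0.631 was that of the libraries that stand apart. For each wt/null library but that of prefix 40B, the null/null library of its own prefix correlated highest among those under the same antibody. As 2 of 6 pairs were below 0.1, the prefix was not taken as a pairing. With it as a block 0 members were called and the averaged genotype median was -0.274. Nlrc5 had 1087 to 3697 counts per library, so counting error was small beside the spread between libraries.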
